A study of Gallus gallus with 3 samples.

Results

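The 10 genes described here, TAGLN, ACTA2, MYH11, LMOD1, MYLK, SYNPO2, KCNMB1, CSRP1, TNNT2 and ACTC1, encode proteins of the smooth and cardiac contractile apparatus. They were taken by name from the 16748 genes of the deposited count tables, and all 10 were present. They were followed through single-cell RNA libraries of the wild-type chicken forelimb field, the tissue lateral to the somites from which the wing arises, with male and female embryos pooled. The 3 libraries come from stages HH10 (embryonic day 1.5), HH14 (day 2.5) and HH18 (day 3.5), with 1210, 1313 and 739 annotated cells. There was 1 library per stage and no replicate, so no test and no p-value is given, and each interval covers counting error only. Cell classes are those of the authors' annotation, which was drawn from the expression of the same cells, so a difference between classes is a description.

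In smooth muscle, myosin slides along actin filaments when a calcium-activated kinase phosphorylates the myosin regulatory light chain. The genes of this apparatus are switched on together by serum response factor and its myocardin-family partners, and several of them, among them TAGLN and ACTA2, are also active for a time in early heart and in other embryonic cells. In the embryo, smooth muscle of the gut wall forms from splanchnic mesoderm, and the chick amnion acquires a contractile smooth muscle layer of its own. Cardiac muscle uses its own actin, ACTC1, and its own troponin T, TNNT2, which ties the calcium-sensing troponin complex to tropomyosin.

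The libraries held 11855255 (HH10), 11267879 (HH14) and 6557527 (HH18) UMIs, unique molecular identifiers that each mark 1 captured RNA molecule. Median depth was 7799, 6641 and 5994 UMIs per cell, and median mitochondrial content was 2.25%, 2.26% and 2.62%. The HH14 and HH10 libraries shared 1 cell barcode, and the other pairs shared 0. Levels are given in CPM, the usual depth-normalised unit in which a gene's UMIs are divided by all UMIs of the summed cells and scaled by a constant, for 33 combinations of class and stage with 20 or more cells. A gene was taken as measured in a comparison with 30 or more UMIs in its 2 sums together, and a fold of 2 is used only as a description of size. A rare member could reach 30 UMIs only through the sum where it was high, and its call was then set by this filter.

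The members differed widely in abundance and in how many cells carried them. CSRP1, a LIM protein that binds actin-bundling partners, had 2821 UMIs in 1345 cells. ACTA2, the alpha actin of smooth muscle, had 2192 UMIs in 594 cells. MYLK, the kinase of the myosin regulatory light chain, had 862 UMIs in 403 cells. The other members lay between 60 and 589 UMIs. TAGLN, an actin-binding calponin relative also called SM22, had 589 UMIs in 227 cells, LMOD1, a leiomodin that nucleates actin filaments, 312 in 140 cells, and TNNT2 292 in 205 cells. SYNPO2, an actin-bundling scaffold, had 245 UMIs in 132 cells. The rarest were KCNMB1, the beta subunit that tunes calcium-activated potassium channels of smooth muscle, with 71 UMIs in 42 cells, MYH11, the smooth muscle myosin heavy chain, with 61 in 22 cells, and ACTC1, with 60 in 27 cells.

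For the rare members a few cells decided the level. The 10 highest cells held 80.3% of MYH11 UMIs, 71.7% of ACTC1 UMIs and 47.9% of KCNMB1 UMIs, against 3.93% of CSRP1 UMIs. One cell alone carried 48.3% of all ACTC1 UMIs. ACTA2, ACTC1, ACTA1 and ACTG2 encode closely related actins, and how the authors' counting divided reads among these genes could not be checked from the counts.

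**Figure D1:**
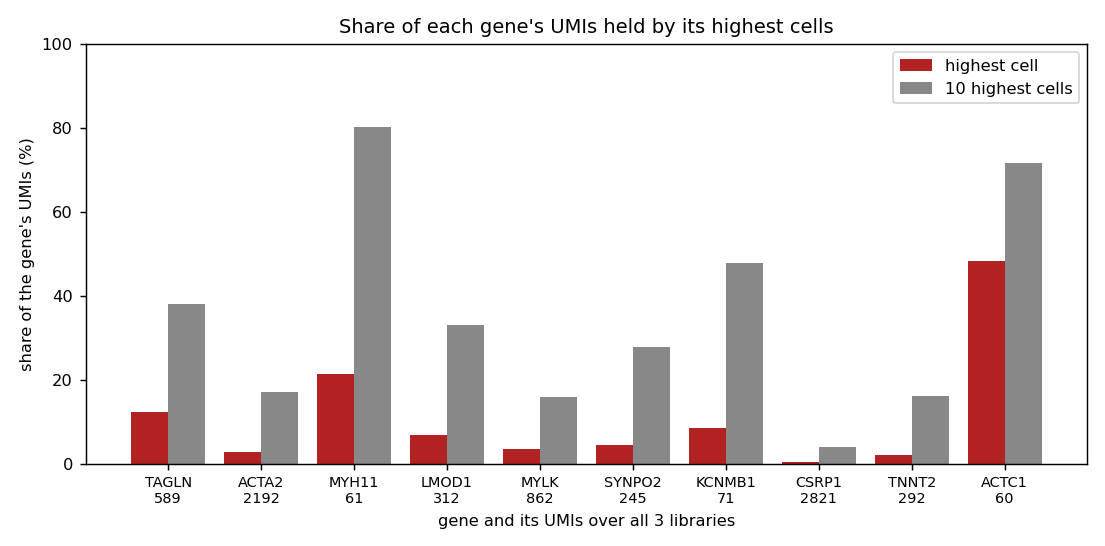
For each gene, the percentage of its UMIs over the 3 libraries that lay in its single highest cell (red) and in its 10 highest cells (grey), with the total UMIs under the name. MYH11 and ACTC1 rested on few cells, with 80.3% and 71.7% in 10 cells, and CSRP1 was spread over many, with 3.93%.

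Summed over all annotated cells of a library, most smooth muscle members were at their lowest at HH10. TAGLN was at 1.43, 41.1 and 16.6 CPM at HH10, HH14 and HH18. ACTA2 was at 27.8, 116 and 84.6 CPM. MYLK was at 15.4, 36.8 and 40.3 CPM. LMOD1 followed the same order as MYLK, with 3.12, 14.4 and 17.2 CPM. SYNPO2 had 2 UMIs at HH10, and its level was 11.4 CPM in the HH14 library and 17.4 CPM in the HH18 library. KCNMB1 had 0 UMIs at HH10, where 3 UMIs would be 0.253 CPM, and 47 and 24 UMIs later. MYH11 had 4, 21 and 36 UMIs.

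Between HH14 and HH10, 9 members were measured, and 7 were higher at HH14 by 2-fold or more, where 6.66% of the 10691 genes measured were higher by that size. The median log2 difference was 2.20 over the members measured and -0.01 over all genes. TAGLN was 28.7-fold higher at HH14 (95% interval 17.7 to 49.6), ACTA2 4.17-fold (3.69 to 4.72), LMOD1 4.61-fold (3.21 to 6.78) and MYLK 2.39-fold (2.0 to 2.85). KCNMB1 was at least 16.5-fold higher, with 3 UMIs set for the HH10 library. ACTC1 was 7.36-fold higher (3.32 to 19.3) and SYNPO2 67.9-fold (18.4 to 566). TNNT2 was the 1 member lower by 2-fold, against 2.89% of all genes, at 5.59 CPM at HH14 and 19.0 CPM at HH10, a 3.39-fold difference (2.56 to 4.56). Between HH18 and HH10, 8 members were measured, of which 6 were higher at HH18 (9.1% of all genes) and 2 lower (4.22%), the lower pair being CSRP1 and TNNT2.

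Between HH18 and HH14 all members were measured. Of these 10, 1 was higher by 2-fold (3.09% of all genes) and 4 were lower (2.76%). MYH11 was 2.95-fold higher at HH18 (1.67 to 5.31). TAGLN was 2.47-fold lower at HH18 (2.002 to 3.07), CSRP1 2.58-fold (2.22 to 3.02), TNNT2 9.17-fold (3.41 to 34.7) and ACTC1 7.13-fold (2.61 to 27.2). One HH14 cell held 29 of the 49 ACTC1 UMIs of that library, and without it ACTC1 had 20 UMIs at HH14, under the 30 set for a fold, with 4 at HH18 and 7 at HH10. The same cell held 72 of the 463 TAGLN UMIs of that library. Without it TAGLN was 2.09-fold lower at HH18, with an interval that reached below 2 (1.69 to 2.61).

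The sums over a library follow its mixture of classes, and fewer cells of a type cannot be told apart from less RNA per cell in them. The gut class had 0, 50 and 16 cells at HH10, HH14 and HH18, and the amnion class had 4, 124 and 62. With both classes left out, an alternative added after the class levels were seen, ACTA2 was at 28.4 CPM at HH14 and 26.3 CPM at HH10, a fold of 1.08 (0.916 to 1.27). LMOD1 was at 3.25 CPM at HH14 and 3.13 CPM at HH10 (1.04-fold, 0.626 to 1.71). MYLK was at 17.3 CPM at HH14 and 15.3 CPM at HH10 (1.13-fold, 0.909 to 1.40). For these 3 genes the levels at HH14 and HH10 lay within counting error of each other once the 2 classes were left out. TAGLN and SYNPO2 were still higher at HH14: TAGLN was at 27.1 CPM at HH14 and 1.44 CPM at HH10 (18.9-fold, 11.6 to 32.9), and SYNPO2 had 47 UMIs at HH14 and 2 at HH10 (28.2-fold, 7.39 to 240). Of the 267 TAGLN UMIs at HH14, 72 lay in 1 low count cell and 22 in 1 endoderm cell. Another 21 lay in 1 splanchnic and 20 in 1 extraembryonic lateral plate cell. The part of these cells in the TAGLN fold was not tested. The count of members higher by 2-fold at HH14 was 3 without the 2 classes, against 7 with them. No share over all genes is given for the count of 3, so whether the fall was particular to the members was not tested. The third member was ACTC1, with 48 UMIs at HH14 and 7 at HH10, and 29 of the 48 lay in 1 low count cell.

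**Figure D2:**
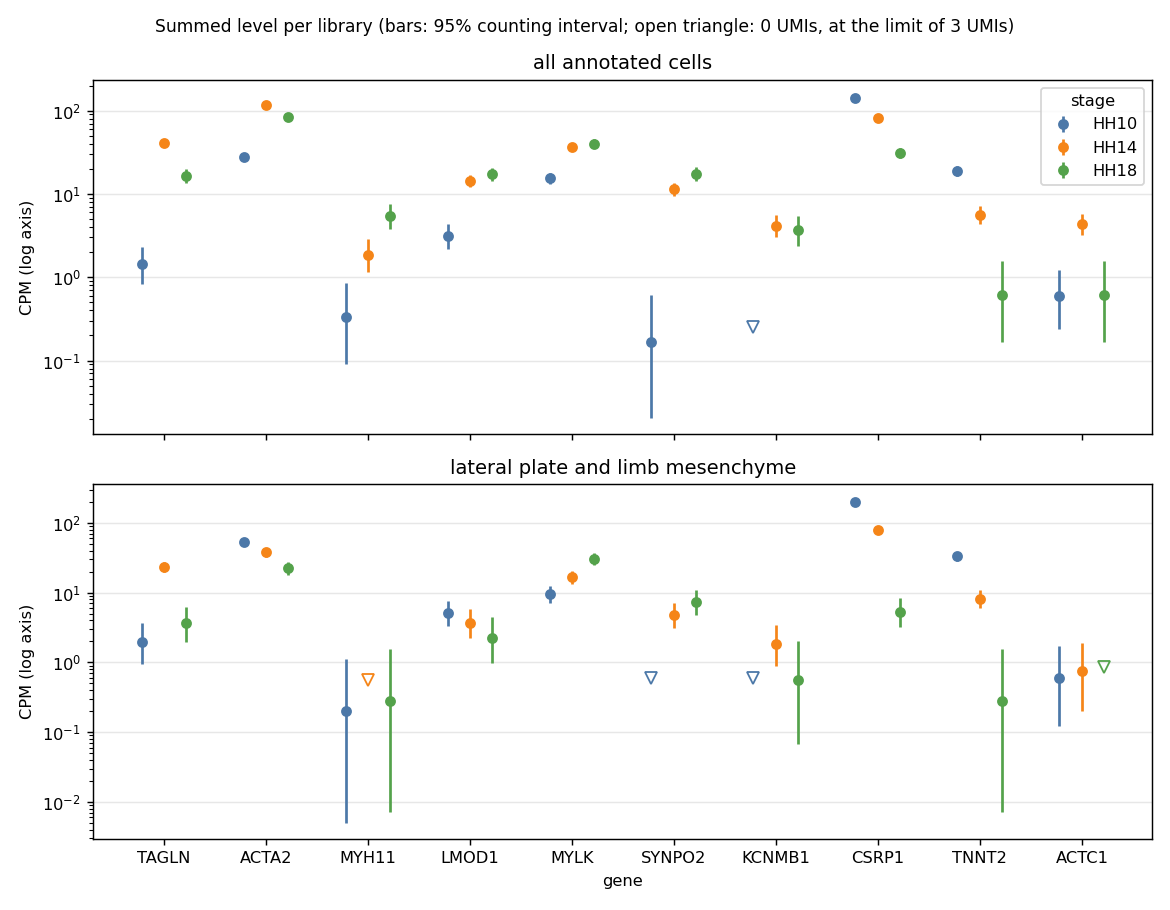
Level of each gene at HH10, HH14 and HH18 on a log axis of CPM, over all annotated cells (top) and over lateral plate and limb mesenchyme (bottom), with bars for the 95% counting interval and open triangles for 0 UMIs, drawn at the limit of 3 UMIs. The HH14 points of ACTA2, LMOD1 and MYLK lie above HH10 in the top panel, by 4.17-fold, 4.61-fold and 2.39-fold, and CSRP1 and TNNT2 decline over the stages in both panels.

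Within lateral plate and limb mesenchyme, the union of 7 classes with 599, 598 and 325 cells at HH10, HH14 and HH18, the members split. MYLK was at 9.53, 16.7 and 30.7 CPM across the stages and TAGLN at 1.99, 23.4 and 3.66 CPM. ACTA2 was at 53.4, 38.0 and 22.3 CPM, the opposite order to MYLK. CSRP1 was at 197, 79.8 and 5.36 CPM, and TNNT2 at 33.2, 8.19 and 0.282 CPM, the last being 1 UMI.

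From these sums, 6 members were measured between HH14 and HH10, with 1 higher (4.34% of all genes), TAGLN at 11.8-fold (6.21 to 25.2), and 2 lower (2.57%), CSRP1 and TNNT2. Between HH18 and HH14, 6 were measured, 0 were higher (3.71%) and 3 were lower (2.99%), with TAGLN lower at HH18 by 6.40-fold (3.61 to 12.3). Between HH18 and HH10, 5 were measured, with 1 higher (8.18%) and 4 lower (4.17%). MYLK was 3.22-fold higher at HH18 (2.28 to 4.63), while CSRP1 was 36.7-fold lower at HH18 (23.4 to 61.2) and TNNT2 118-fold lower (20.8 to 4675). The TAGLN level of the mesenchyme was thus highest at HH14. The splanchnic lateral plate held 81 of its 126 TAGLN UMIs at HH14, with 21 in 1 cell. The extraembryonic lateral plate held 25, with 20 in 1 cell. The splanchnic class had 215 cells at HH14 and 21 at HH18, with TAGLN at 43.7 and 40.3 CPM. The part of class mixture and single cells in the TAGLN order was not tested. Neither was the part of class mixture in the ACTA2 order or in the MYLK, CSRP1 and TNNT2 folds of the mesenchyme.

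**Figure D3:**
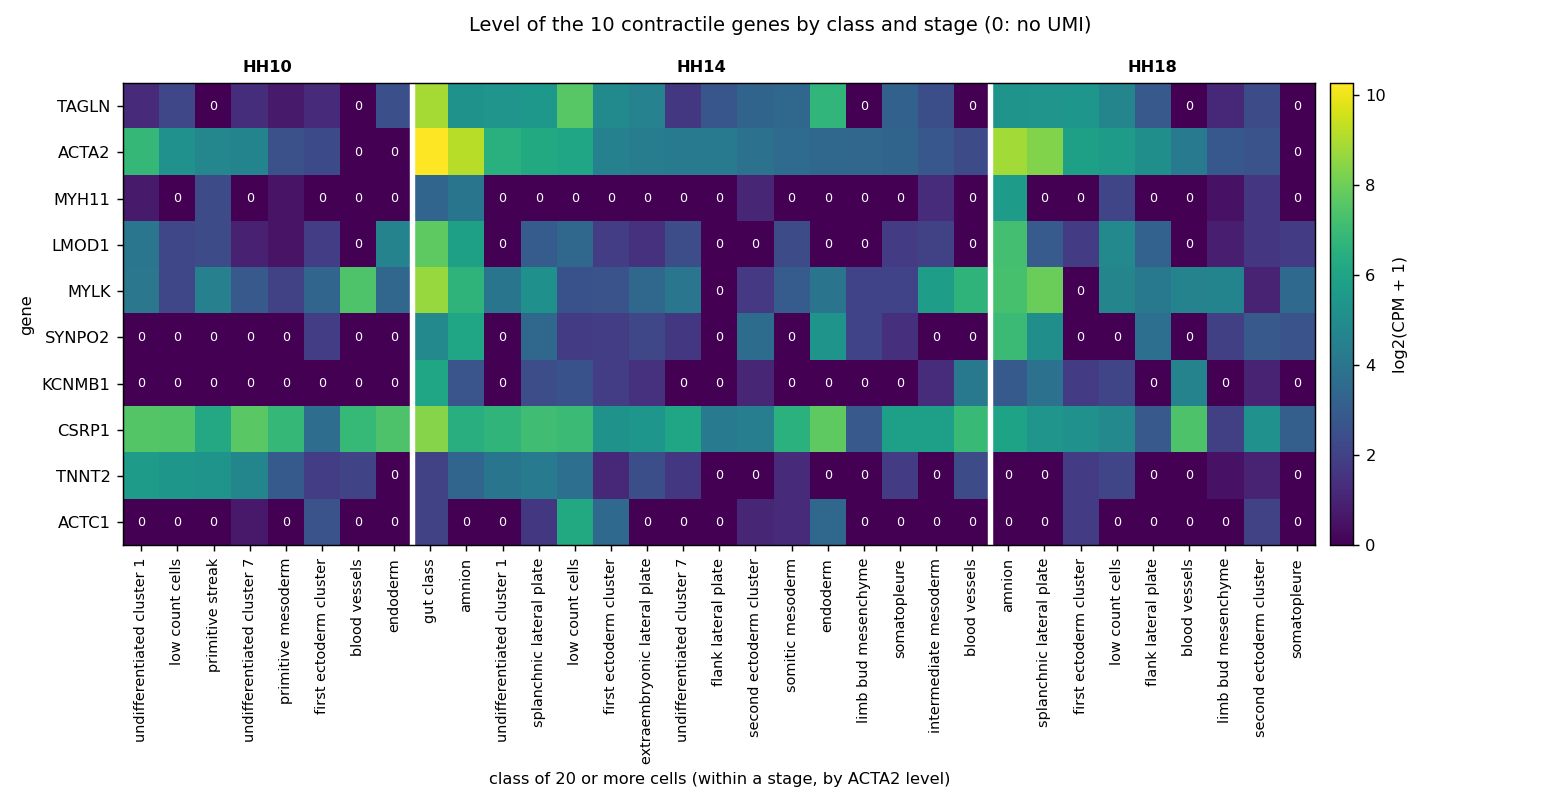
Levels of the 10 genes, as log2(CPM + 1), in each class with 20 or more cells, grouped by stage and ordered within a stage by the ACTA2 level, with 0 marking sums without a UMI. The brightest columns are the gut class and amnion at HH14 and the amnion and splanchnic lateral plate at HH18. CSRP1 is also bright in blood vessels, as is MYLK at HH10 and HH14, and TAGLN is 0 there at every stage.

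The highest levels of 6 of the smooth muscle members lay in the class the authors named Gut. At HH14 its 50 cells were checked against other cell types: of the endoderm markers, FOXA2, SOX17 and SHH were at 0, while TTR and APOA1 together had 238 UMIs. The markers summed to 722 CPM in the gut class, against 6410 CPM in endoderm, 368 CPM in splanchnic lateral plate and 247 CPM in amnion. FOXA2, SOX17 and SHH were also at 0 in several other HH14 classes, among them the amnion. NKX2-3, a homeobox gene of gut mesenchyme, was at 54.6 CPM in the gut class and 6.77 CPM in the rest of the HH14 library. HAND1, a regulator of lateral mesoderm and its extraembryonic parts, was at 1113 CPM in the gut class and 343 CPM in the rest.

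In the gut class at HH14, ACTA2 was at 1228 CPM, against 82.5 CPM in the rest of the library, a 14.9-fold difference (13.2 to 16.8). TAGLN was at 473 CPM in the gut class and 28.1 CPM in the rest (16.9-fold, 13.8 to 20.5). LMOD1 was at 209 CPM in the gut class and 8.502 CPM in the rest (24.6-fold, 17.8 to 34.0). All 3 encode proteins of the actin filament. MYLK was at 412 CPM in the gut class and 25.5 CPM in the rest (16.2-fold, 13.1 to 19.9), KCNMB1 at 63.7 and 2.38 CPM (26.8-fold, 14.3 to 49.5) and CSRP1 at 339.6 and 73.3 CPM (4.63-fold, 3.77 to 5.65). In all, 7 of 9 measured members were at least 2-fold higher in the gut class, where 8.46% of 9677 genes were, and 0 were lower. Besides the 6 above this was SYNPO2, on 9 gut class UMIs, of which 3 lay in 1 cell. With the 1 HH14 cell of highest ACTC1 left out, the SYNPO2 fold was 2.48 (1.11 to 4.88). That cell held 29 of the 49 ACTC1 UMIs of the library, and without it ACTC1 was not measured. KCNMB1 was measured only through the gut class, which held 21 of its 47 UMIs at HH14. Its call as higher there thus followed from the filter on UMIs. The 7 include KCNMB1 and the 9 include both genes. Both were measured in this way in every HH14 comparison of a class with the rest. The gut class, with 3.81% of the HH14 cells, held 33.7% of the TAGLN UMIs of that library, 31.0% of its ACTA2 UMIs and 42.6% of its LMOD1 UMIs. The myosin heavy chain MYH11 had 3 UMIs there and the cardiac members TNNT2 and ACTC1 had 1 UMI each.

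The 16 gut class cells of the HH18 library were below the size set for a class and are given without a fold. ACTA2 was at 1872 CPM, with a UMI in 16 of 16 cells, TAGLN and CSRP1 at 584 CPM each, MYLK at 531 CPM and KCNMB1 at 146 CPM. LMOD1 had 3 UMIs and MYH11 1 UMI.

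The amnion carried a different mixture. At HH14, over 124 cells, ACTA2 was at 571 CPM, against 67.3 CPM in the rest of the library (8.48-fold, 7.59 to 9.46). SYNPO2 was at 67.0 CPM in the amnion and 5.50 CPM in the rest (12.2-fold, 8.48 to 17.6), LMOD1 at 56.0 and 9.92 CPM (5.64-fold, 4.03 to 7.82) and MYLK at 99.99 and 30.1 CPM (3.33-fold, 2.65 to 4.15). These were the 4 of 9 measured members past 2-fold, where 5.78% of all genes were. TAGLN was at 36.7 CPM in the amnion and 41.6 CPM in the rest. Without 1 low count cell that held 72 TAGLN UMIs, the rest was at 34.5 CPM (1.06-fold, 0.746 to 1.48).

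At HH18, over 62 amnion cells, all 7 measured members were at least 2-fold higher than in the rest, where 6.46% of 8897 genes were. The largest fold was that of MYH11, with 31 UMIs in the amnion and 5 in the rest (59.7-fold, 23.0 to 197). MYH11 reached the 30 UMIs set for a fold only through the amnion, so its call as higher there followed from that filter. Of the 31, 13 lay in 1 cell of 19639 UMIs, without which the amnion level of MYH11 was 30.1 CPM in place of 50.2 CPM. LMOD1 was at 144 CPM in the amnion and 4.04 CPM in the rest (35.7-fold, 22.5 to 58.6), and SYNPO2 at 126 and 6.06 CPM (20.9-fold, 13.9 to 31.9). The smallest folds were those of CSRP1 (2.18-fold, 1.49 to 3.11) and TAGLN (2.72-fold, 1.65 to 4.32). The amnion, with 8.39% of the cells of the HH18 library, held 86.1% of its MYH11 UMIs, 78.8% of its LMOD1 UMIs and 68.4% of its SYNPO2 UMIs.

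Within the amnion, 2 of 7 measured members were higher by 2-fold or more at HH18 than at HH14, where 2.55% of 5803 genes were. LMOD1 was at 144 CPM at HH18 and 56.0 CPM at HH14 (2.58-fold, 1.84 to 3.63). MYH11 was at 50.2 CPM at HH18 and 14.7 CPM at HH14 (3.42-fold, 1.82 to 6.70). Of the 16 MYH11 UMIs of the HH14 amnion, 11 lay in 1 cell of 31785 UMIs, which also held 63 ACTA2 and 31 MYLK UMIs. The median depth of the amnion at HH14 was 6287.5 UMIs, and whether this barcode held more than 1 cell was not tested. SYNPO2 was 1.89-fold higher at HH18 (1.35 to 2.63) and MYLK 1.52-fold (1.14 to 2.03). ACTA2 was at 457 CPM at HH18 and 571 CPM at HH14, a fold of 0.801 (0.693 to 0.923), so the actin did not share the order of LMOD1 and MYH11. The 4 amnion cells of the HH10 library had 19 ACTA2 UMIs and none of LMOD1, MYH11, SYNPO2 or TAGLN.

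Set directly against each other at HH14, a comparison added after the class levels were seen, the gut class exceeded the amnion in 5 of 6 measured members by 2-fold or more, where 4.03% of 5216 genes were higher. TAGLN showed the largest difference, 12.9-fold (9.06 to 18.7), followed by MYLK at 4.12-fold (3.18 to 5.36), CSRP1 at 4.02-fold (3.03 to 5.36), LMOD1 at 3.74-fold (2.61 to 5.37) and ACTA2 at 2.15-fold (1.89 to 2.44). SYNPO2 was the 1 lower member (7.76% of genes), at 27.3 CPM in the gut class and 67.0 CPM in the amnion, 2.45-fold apart (1.22 to 5.58). The remaining pairs were under 30 UMIs: KCNMB1 had 21 UMIs in the gut class and 6 in the amnion, and MYH11 had 3 in the gut class and 16 in the amnion. All 6 KCNMB1 UMIs and 11 of the 16 MYH11 UMIs of the amnion lay in the 1 cell of 31785 UMIs. The 3 MYH11 UMIs of the gut class also lay in 1 cell.

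**Figure D4:**
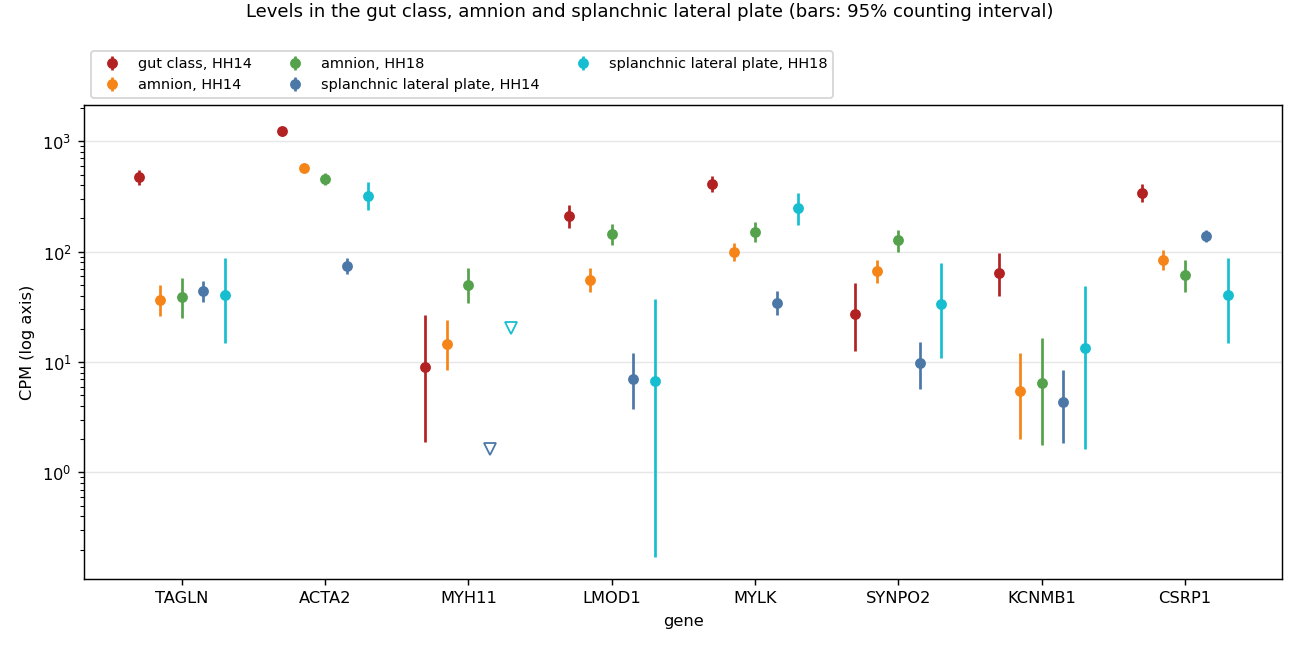
Level of 8 genes on a log axis of CPM in the gut class at HH14, the amnion at HH14 and HH18 and the splanchnic lateral plate at HH14 and HH18, with bars for the 95% counting interval and open triangles for 0 UMIs. The gut class leads for TAGLN, ACTA2, MYLK, KCNMB1 and CSRP1, the amnion at HH18 leads for MYH11 and SYNPO2, and TAGLN is 12.9-fold higher in the gut class than in the amnion at HH14.

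The splanchnic lateral plate, the inner layer of lateral mesoderm next to the endoderm, is where gut smooth muscle arises. At HH18 its ACTA2 and MYLK levels overlapped those of the amnion in their intervals, and at HH14 several classes lay above it. At HH14, over 215 cells, 2 of 9 measured members were higher than in the rest (2.56% of all genes), namely TNNT2 at 17.2 CPM against 3.29 CPM (5.24-fold, 3.09 to 8.87) and CSRP1 at 139.6 CPM against 69.6 CPM (2.01-fold, 1.73 to 2.32). LMOD1 and ACTC1 were the 2 lower members (7.64%), but 29 of the 45 ACTC1 UMIs of the rest lay in 1 cell. Without that cell ACTC1 was at 2.16 CPM in the splanchnic class and 1.70 CPM in the rest, on 4 and 16 UMIs. TAGLN, at 43.7 CPM, and ACTA2, at 74.9 CPM, did not reach 2-fold in either direction. At HH18, with 21 cells, 3 of 7 measured members were higher than in the rest (8.24%) and 1 lower (9.36%), with MYLK at 249 CPM against 35.4 CPM (7.02-fold, 4.82 to 9.98) and ACTA2 at 323 CPM against 79.1 CPM (4.08-fold, 2.97 to 5.49). TAGLN was the other higher member, on 6 UMIs, with an interval that included no difference (2.51-fold, 0.9 to 5.65).

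Within this class, 2 of 5 measured members were higher at HH18 than at HH14 (5.65% of all genes) and 1 was lower (9.09%). MYLK was at 249 CPM at HH18 and 34.5 CPM at HH14 (7.21-fold, 4.68 to 10.98), and ACTA2 at 323 CPM at HH18 and 74.9 CPM at HH14 (4.31-fold, 3.04 to 6.02). CSRP1 was at 40.3 CPM at HH18 and 139.6 CPM at HH14, 3.46-fold lower at HH18 (1.57 to 9.52). TAGLN was at 40.3 CPM at HH18 and 43.7 CPM at HH14. The kinase and the actin were thus higher at HH18, and the TAGLN levels of the 2 stages overlapped in their intervals.

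At HH10, before any gut class cell was annotated, the undifferentiated lateral plate cluster numbered 1 held the highest ACTA2. Over 132 cells it was at 115 CPM, against 15.8 CPM in the rest of the library (7.29-fold, 5.84 to 9.10). LMOD1 was at 15.2 CPM in this cluster and 1.44 CPM in the rest (10.6-fold, 5.23 to 21.9), and TNNT2 at 48.4 and 14.9 CPM (3.25-fold, 2.42 to 4.34). These 3 of 5 measured members were past 2-fold, where 4.76% of 9495 genes were. The cluster had 10.9% of the HH10 cells and held 50.3% of the ACTA2 UMIs, 59.5% of the LMOD1 UMIs and 31.1% of the TNNT2 UMIs. TAGLN had 2 UMIs there, so ACTA2 was high where TAGLN was near 0. HAND1 was at 620.3 CPM in the cluster and 154 CPM in the rest. In the 301 primitive mesoderm cells of the same library 4 of 5 measured members were lower than in the rest (5.28%), with ACTA2 at 4.86 CPM against 42.0 CPM.

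Blood vessel cells had MYLK and CSRP1 without the actin-filament members. MYLK was at 174, 101 and 22.9 CPM in this class at HH10, HH14 and HH18, against 15.4, 36.8 and 40.3 CPM over all annotated cells. At HH18 MYLK had 4 UMIs in the class and was thus below the whole library. At HH14, 10 of its 24 UMIs there lay in 1 cell, without which the level was 63.0 CPM. CSRP1 was at 117, 122 and 166 CPM in the class, against 143, 81.1 and 31.4 CPM over all annotated cells. TAGLN, LMOD1, MYH11 and SYNPO2 had no UMI in the class at any stage, and ACTA2 had 0, 1 and 3 UMIs. KCNMB1 had 4 UMIs in the class at HH14 and 4 at HH18. At HH10 the MYLK level was 24.8-fold that of the rest of the library (18.3 to 33.7), and at HH18 it was 7.59-fold lower than at HH10 within the class (2.88 to 28.4). The class had 73, 40 and 30 cells. Of 4 pericyte markers tallied, 2, 1 and 0 were detected in it at HH10, HH14 and HH18, on 3, 1 and 0 UMIs. Of 6 smooth muscle markers other than the members, 3 were detected at each stage and summed to 722, 1172 and 1038 CPM, with CNN1, ACTG2 and MYOCD at 0. The same markers summed to 606 CPM in the gut class at HH14, and their part in the MYLK level was not tested. The MYLK gene is also known to be used by endothelium, where the kinase acts on cell contacts.

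In the prospective wing itself the set was low, as in several other HH18 classes. In the 180 limb bud mesenchyme cells at HH18 all 7 measured members were lower than in the rest of the library, where 8.71% of genes were. MYH11 was among the 7, on 1 UMI, and 31 of its 36 UMIs at HH18 lay in the amnion. It reached 30 UMIs only through the amnion, here and in every other HH18 class comparison. ACTA2 was at 6.12 CPM against 132 CPM (21.5-fold, 12.9 to 38.7), TAGLN at 1.22 CPM against 25.8 CPM (21.1-fold, 7.03 to 104) and LMOD1 at 0.816 CPM against 27.0 CPM (33.1-fold, 8.96 to 277). MYLK was the least reduced, at 23.7 CPM against 50.2 CPM (2.12-fold, 1.58 to 2.89), and it had 1 UMI in the 21 limb bud cells at HH14. The rest at HH18 included the amnion, with 282 of the library's 555 ACTA2 UMIs, 89 of its 113 LMOD1 UMIs and 94 of its 264 MYLK UMIs. Folds of the limb bud over a rest without the amnion are not given, so the part of the amnion in the lower calls, that of MYLK among them, was not tested. Also at HH18, 6 of 7 were lower in the second ectoderm cluster (9.17% of genes), where ACTA2 was at 5.18 CPM. In somatopleure 6 were lower (16%), and in the flank lateral plate 5 (7.89%). In the 165 somatopleure cells at HH14, from which limb mesenchyme arises, 7 of 9 measured members were lower than in the rest (14.8%), with ACTA2 at 8.84 CPM against 129 CPM. ACTC1 was among the 7, at 0 UMIs against 49, or 20 without the 1 cell with 29. At HH14, 7 of 9 were also lower in the second ectoderm cluster (9.31%) and in somitic mesoderm (9.63%). In the first ectoderm cluster (12.5%), extraembryonic lateral plate (7.1%) and undifferentiated cluster 7 (11.8%), 6 were lower. The rest in each of these comparisons included the gut class and amnion, with 405 and 622 of the library's 1307 ACTA2 UMIs.

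The cardiac members were few in counts. TNNT2 had 225, 63 and 4 UMIs in the HH10, HH14 and HH18 libraries. At HH10 its highest levels lay in undifferentiated cluster 1 (48.4 CPM), low count cells (42.4 CPM) and primitive streak (38.6 CPM), which do not differ beyond counting error. At HH14 the splanchnic lateral plate (17.2 CPM) came first, with overlapping intervals in undifferentiated cluster 1 (15.1 CPM), low count cells (12.4 CPM) and amnion (9.17 CPM). Within undifferentiated cluster 7 it had 1 UMI at HH14 and 84 at HH10, 11.8-fold lower at HH14 (2.06 to 471). Of 9 cardiomyocyte markers tallied, 7 were detected in cluster 1 at HH10, and NKX2-5 and MYBPC3 were at 0 there and in every other HH10 class. The 9 markers summed to 526 CPM in cluster 1 and to between 199 and 863 CPM in the other HH10 classes, the highest being endoderm.

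ACTC1 had 7, 49 and 4 UMIs in the HH10, HH14 and HH18 libraries. Of the 49 at HH14, 29 lay in 1 cell of the low count class that had 13152 UMIs, above the library's median of 6641. The same cell held 72 TAGLN UMIs, 14 CSRP1 UMIs, 24 ACTA1 UMIs and 31 MYL4 UMIs, but 1 ACTA2 UMI, 2 TNNT2 UMIs and none of TNNC1, TNNI1, MYL2 or MYL3. NKX2-5 had no UMI in it or in the rest of the HH14 library. The cell also carried 40 EPCAM and 92 KRT24 UMIs, genes of epithelium, and 42 UMIs of the neuronal tubulin TUBB3, with 0.0532% mitochondrial UMIs. Without it the ACTC1 level of the low count class was 2.57 CPM, against 74.6 CPM with it.

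Such single cells also set some TAGLN levels. In HH14 endoderm, all 22 TAGLN UMIs lay in 1 cell of 4168 UMIs, and the level of 106 CPM became 0 without it. In HH14 low count cells 72 of 77 lay in the cell described above, and the 191 CPM became 12.8 CPM. In the extraembryonic lateral plate 20 of 25 lay in 1 cell of 3299 UMIs, with 22.3 CPM and, without it, 4.47 CPM. The high TAGLN level of the gut class was not of this kind, since TAGLN was found in 24 of its 46 cells after thinning.

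Shares of cells were compared after thinning every cell to 2500 UMIs, which kept 2981 cells and dropped 281. ACTA2 was then found in 82.6% of 46 gut class cells at HH14 (Clopper-Pearson 68.6 to 92.2; unthinned 94%), in 54.2% of 118 amnion cells at HH14 (44.8 to 63.4; unthinned 78.2%) and in 63.2% of 57 amnion cells at HH18 (49.3 to 75.6; unthinned 85.5%). The first ectoderm cluster, which should lack smooth muscle genes, had 2.25% at HH14 (0.273 to 7.88; unthinned 13.98%), with a median of 6648 UMIs per cell, against 5109.5 in the gut class. The ACTA2 shares of the gut class and amnion were thus above that of ectoderm. TAGLN was found in 52.2% of gut class cells (36.9 to 67.1; unthinned 64%), in 5.93% of HH14 amnion cells (2.42 to 11.8; unthinned 21.8%) and in 6.74% of cells of the first ectoderm cluster (2.51 to 14.1; unthinned 18.3%). The intervals of the HH14 amnion and ectoderm shares of TAGLN overlapped. Blood vessels had no TAGLN UMI at HH14 (0 of 31 thinned cells, with a Clopper-Pearson upper limit of 11.2%). The ectoderm cluster was at 28.6 CPM, so it is no clean background for TAGLN. MYLK was found in 26.5% of blood vessel cells at HH10 (16.5 to 38.6; unthinned 49.3%) and in 3.75% of cells of the first ectoderm cluster at HH10 (0.78 to 10.6; unthinned 8.64%), with medians of 5562 and 6764 UMIs.

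**Figure D5:**
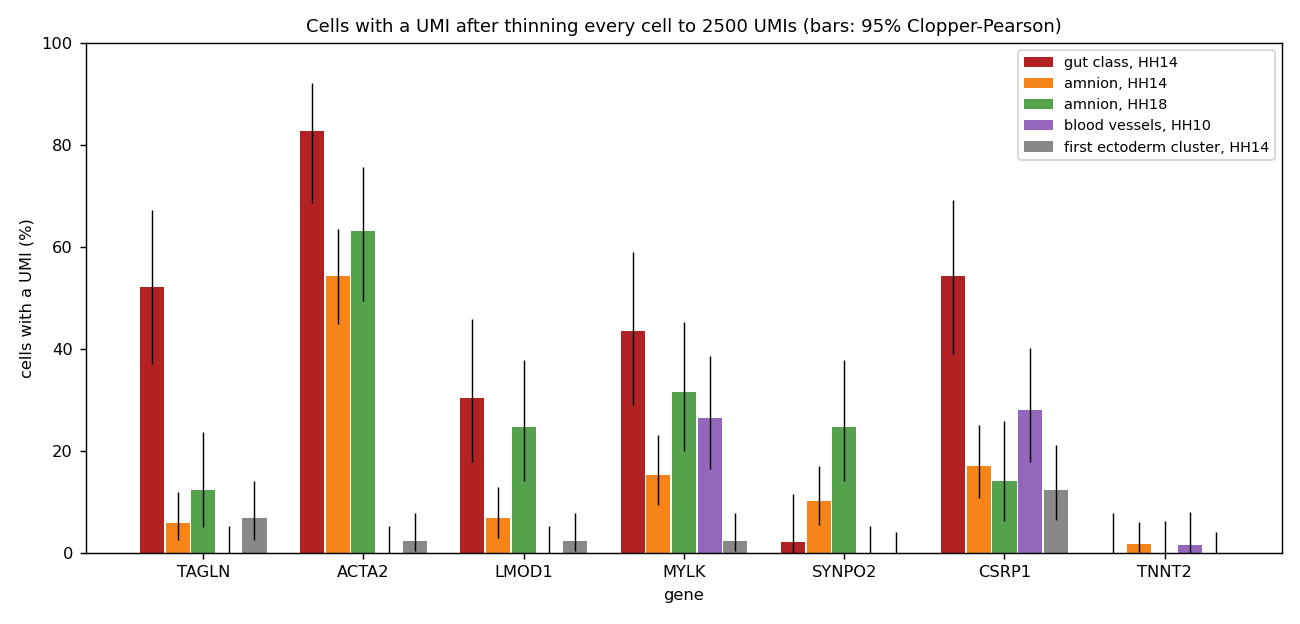
Percentage of cells with a UMI of 7 genes after every cell was thinned to 2500 UMIs, in the gut class and amnion at HH14, the amnion at HH18, blood vessels at HH10 and the first ectoderm cluster at HH14, with 95% Clopper-Pearson intervals. ACTA2 reaches 82.6% in the gut class and 2.25% in the ectoderm cluster, and blood vessels show MYLK (26.5%) and CSRP1 but no TAGLN, ACTA2 or LMOD1.

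Few cells carried several of the 7 smooth muscle members other than CSRP1 at once. At the thinned depth, 16 of 46 gut class cells at HH14 had 3 or more of them (34.8%, 21.4 to 50.2). So did 17 of 57 amnion cells at HH18 (29.8%, 18.4 to 43.4) and 7 of 118 at HH14 (5.93%, 2.42 to 11.8). In every other class the number was between 0 and 3 cells, with 3 of 210 in the HH14 splanchnic lateral plate. The most in 1 cell was 6 in the gut class, 5 in the HH18 amnion and 4 in the HH14 amnion.

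Co-detection is given for the classes with the most of these genes, with no comparison between classes. Among the thinned gut class cells, all 14 with LMOD1 also had ACTA2, and 12 of the 14 had TAGLN, against 12 of the 32 without LMOD1. In the HH14 amnion, 6 of 8 cells with LMOD1 had ACTA2, against 58 of 110 without LMOD1. There, 4 of 12 cells with SYNPO2 had ACTA2, against 60 of 106 without SYNPO2. In the HH18 amnion, 10 of 36 cells with ACTA2 had SYNPO2, against 4 of 21 without ACTA2. These counts are small, and cells of 1 library are not replicates.

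Other genes of the apparatus were read from lists chosen with earlier results of these data known. Of 27 further smooth muscle contractile genes, 21 were measured between the gut class and the rest at HH14, with 14 higher and 3 lower (8.46% and 9.96% of all genes) and a median log2 difference of 1.43, against -0.01 over all genes. PDLIM3, a PDZ and LIM protein of actin bundles, was 8.48-fold higher in the gut class (5.12 to 13.5), CALD1, the actin-binding caldesmon, 7.56-fold (6.54 to 8.70), the integrin ITGA8 6.46-fold (3.45 to 11.3) and TAGLN2 5.12-fold (4.25 to 6.13). Of 14 measured genes of the serum response factor and actin list 6 were higher and 0 lower, among them the LIM cofactor FHL2 (6.71-fold, 3.74 to 11.4). The cardiac sarcomere list had 2 of 8 higher, MYL4 at 1295 CPM in the gut class and 129 CPM in the rest, and TPM1, which smooth muscle also uses, at 3.56-fold (3.28 to 3.87). Of 9 cardiomyocyte markers tallied in the gut class 5 were detected, and the 9 summed to 1604 CPM. In the other HH14 classes they summed to between 85.0 CPM (limb bud mesenchyme) and 878 CPM (endoderm). NKX2-5, MYH7, TNNI1 and MYBPC3 were at 0 in the gut class. NKX2-5 had no UMI in the whole HH14 library, and MYBPC3 was at 0 in most other HH14 classes. The part of these markers in the gut class values was not tested. Of 6 smooth muscle markers other than the members, 4 were detected in the gut class and 4 in the amnion at HH14, summing to 606 and 228 CPM. In the other HH14 classes the 6 summed to between 168 CPM (undifferentiated cluster 7) and 1172 CPM (blood vessels). CNN1, the smooth muscle calponin, had 0 UMIs in the gut class and the amnion. MYOCD, the coactivator myocardin, had 0 in the gut class and 1 in the amnion. Both genes were also at 0 in most other HH14 classes.

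In the amnion at HH14, 4 of 21 measured genes of the smooth muscle list were higher than in the rest and 2 lower (5.78% and 8.31% of all genes), with a median log2 difference of 0.16, against -0.04 over all genes. TAGLN3, a neuronal relative of TAGLN, was 16.1-fold higher (9.59 to 27.4) and PDLIM3 5.95-fold (3.98 to 8.82). Of the 3 measured genes of the pericyte and mural list 2 were higher, the potassium channel genes KCNJ8 (10.8-fold, 5.58 to 21.1) and ABCC9 (8.14-fold, 5.68 to 11.6), whose products form 1 channel, and MCAM was lower. PDGFRB and RGS5, defining pericyte markers, were at 0 in the amnion at both stages. At HH18 the list gave 3 of 17 higher and 1 lower in the amnion (6.46% and 8.65% of all genes), with CALD1 4.03-fold (3.27 to 4.95) and TPM4 2.999-fold (2.61 to 3.43) higher.

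In the HH10 undifferentiated cluster 1, 4 of 17 measured smooth muscle list genes were higher than in the rest and 2 lower (4.76% and 5.56% of all genes), with CALD1 4.65-fold higher (4.03 to 5.35), ITGA8 4.64-fold (2.80 to 7.56) and CSRP2 8.60-fold lower. Of the splanchnic and gut mesenchyme list 4 of 7 were higher and 0 lower, including HAND1 (4.04-fold, 3.71 to 4.38) and FOXF1, a regulator of splanchnic mesoderm (2.07-fold, 1.65 to 2.59).

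The genes most like each member were ranked by Pearson correlation of log2(CPM + 10) over the 33 class and stage sums, among 8294 genes with 100 or more UMIs. The 33 points share 3 libraries and differ in depth, so the values are a description. TAGLN was most like TPM1 (r = 0.823) and MYL9 (0.746), ACTA2 like PDLIM3 (0.873) and ST8SIA6 (0.862), and LMOD1 like ACTA2 (0.769). MYLK was most like SYNM (0.782), SYNPO2 like KITLG (0.764) and ABCC9 (0.759), CSRP1 like NUAK1 (0.724) and TNNT2 like SST (0.852). Among the members themselves the closest pair was MYH11 and LMOD1 (0.799), and TNNT2 was not close to ACTA2 (0.234), TAGLN (-0.0439) or ACTC1 (0.0449). MYH11, with 61 UMIs, and ACTC1, with 60, each had no UMI in 22 of the 33 sums, so their values rest on few sums. In the amnion, 1 cell held 11 MYH11 and 14 LMOD1 UMIs at HH14, and 1 cell held 13 and 21 at HH18.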

How the data were processed

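Single cells were profiled with a droplet 3' UMI kit. The submitters' processing notes name Cell Ranger 4.0.0 and the chicken build GRCg6a. The deposited matrices hold raw UMI counts per gene and cell, and the authors' annotation table gives cell classes and the percent of mitochondrial and ribosomal UMIs per cell; how multi-mapped reads were handled is not given in the sources used here. The annotated cells were used as deposited, with 20 cells of no finer class kept only in whole-library sums and 9 annotation columns not used. Per-cell sums of the deposited counts matched the annotated totals exactly for 84.4% of cells and elsewhere differed by at most 9 UMIs.

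Counts were summed per class and library with Python 3.11.15, numpy 2.4.6, scipy 1.17.1 and pandas 2.3.3, and figures were drawn with matplotlib 3.10.9. Levels carry exact Poisson 95% intervals, folds exact conditional binomial intervals and shares exact Clopper-Pearson intervals; all cover counting error only. A fold against 0 was set at a limit of 3 UMIs. Thinning drew 2500 UMIs per cell, the 10th percentile of depth, with 3700 as the alternative. No doublet caller was run; as an alternative the 2% of cells with the most UMIs, 67 cells, were left out. The fold and interval code was tested on simulated data.

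All 10 genes are named, with up to 5 most alike genes for members with 100 or more UMIs and up to 4 genes per list by size of fold. The genes and lists were chosen with earlier results of these data known.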

Additional observations from a re-analysis of the deposited data

Results flagged for a closer look

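CSRP1 differed in direction between classes under the same stage comparison. In the first ectoderm cluster its log2 difference between HH14 and HH10 was 1.63, with 28 UMIs (36.3 CPM) at HH14 and 9 UMIs (11.7 CPM) at HH10, a 3.1-fold difference (1.42 to 7.47). In undifferentiated cluster 7 it was -1.58, with 31 UMIs (67.0 CPM) at HH14 and 658 UMIs (199.6 CPM) at HH10. Each class had 1 library per stage, so the difference between the classes was not tested.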

How the results depend on the processing

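No paired analysis was possible because each stage had 1 library. Of 1851 alternative values for single genes, 1757 kept their direction and moved little, 90 moved and 4 reversed. The reversed log2 differences were ACTA2 between HH18 and HH10 without gut class and amnion cells (-0.22), and TAGLN in endoderm (-1.21) and in low count cells (-1.41) over the rest at HH14 without the highest cell of each sum, and TAGLN in low count cells also without the highest ACTC1 cell alone (-1.47). Leaving out gut class and amnion cells, leaving out the highest cells and using classes of 10 cells were chosen after seeing the data.

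Counts of members past 2-fold changed as follows, and apart from the choices that by construction use fewer UMIs, cells or a larger fold, the cause was not tested. Each count takes both directions together. Counts for classes over the rest and within classes are also summed over classes, so 1 member can count several times. Of the 86 for classes over the rest at HH14, 24 were higher and 62 lower. No share over all genes is given for these summed counts or for the altered counts, so whether a change was particular to the members was not tested. Without gut class and amnion cells the whole-library count was 4 for HH14 over HH10 and 4 for HH18 over HH10, against 8 and 8. With thinned cells the counts were 13 (HH10) and 44 (HH14) for classes over the rest, against 20 and 86; 3, 0 and 6 within classes for HH14 over HH10, HH18 over HH10 and HH18 over HH14, against 6, 2 and 11; and 5 and 2 over whole libraries for HH14 over HH10 and HH18 over HH14, against 8 and 5. At 4-fold they were 53 (HH14) and 26 (HH18) for classes over the rest, against 86 and 41; 3 and 7 within classes for HH14 over HH10 and HH18 over HH14; 2 in mesenchyme for HH18 over HH10, against 5; 2 over whole libraries for HH18 over HH14; and 3 for the gut class over amnion, against 6. With a minimum of 10 UMIs the within-class counts were 12, 6 and 17, and with 100 UMIs 1, 1 and 4; the mesenchyme count for HH14 over HH10 was 5 with 10 UMIs, against 3, and the whole-library count for HH18 over HH14 was 2 with 100 UMIs. Classes of 10 cells gave 11 and 4, and first-level classes 12 and 8, for HH14 and HH18 over HH10 within classes. Without the highest cell the within-class count for HH18 over HH14 was 7, and as a mean over cells the mesenchyme count for HH18 over HH10 was 3. Without thinning, ACTA2 shares were 78.2% and 85.5% in the amnion at HH14 and HH18, 94% in the gut class and 42.4% in cluster 1, and the MYLK share in blood vessels was 49.3%; thinned to 3700 UMIs the HH14 amnion share of ACTA2 was 70.4%.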
